A study of Homo sapiens with 5 samples.

Results

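The immediate early genes EGR1, DUSP1, IER2, ZFP36 and ATF3 were examined for chromatin immunoprecipitation peaks of 2 antibodies against PRDM11 and of RNA polymerase II. Peaks were chosen by position alone: those within 5 kb of the gene's span on the human build hg19, in any of the 6 deposited peak lists. The rule took 182 of 1150695 peaks. In the lists called against IgG it took 5 of 13499 antibody 1 peaks, 44 of 465837 antibody 2 peaks and 38 of 50161 RNA polymerase II peaks. In the lists called against input it took 11 of 54038, 43 of 486796 and 41 of 80364. The cells were untreated U2932, an established cell line from a human lymphoma. Cross-linked, sonicated chromatin was precipitated with non-commercial rabbit polyclonal antibodies against PRDM11 (antibody 1 and antibody 2) or with a commercial antibody to RNA polymerase II, and rabbit IgG and input DNA were sequenced as controls. There was 1 library per antibody and per control, 5 in all, so values carry no replicate error and no test between antibodies was possible. The lists give positions without read counts or scores, so the depth behind a peak is unknown. Where no control is named, the IgG lists are meant.

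Immediate early genes are transcribed within minutes of a growth, stress or cytokine signal, from factors already present in the cell. Serum response factor at CArG boxes and CREB at cyclic AMP response elements are well-known activators of such promoters, and polymerase can be held near the start before the signal arrives. Among the 5 genes, EGR1 encodes a zinc finger transcription factor and ATF3 a stress-induced bZIP transcription factor. DUSP1 encodes a phosphatase that inactivates MAP kinases. ZFP36 encodes tristetraprolin, which binds AU-rich messenger RNAs and promotes their decay, and IER2 a small nuclear protein. PRDM11 belongs to the PR domain protein family, whose members act on transcription at chromatin.

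On hg19, EGR1 lay on chromosome 5 from 137801181 to 137805004 on the plus strand. DUSP1 lay on chromosome 5 from 172195093 to 172198203 on the minus strand. IER2 and ZFP36 lay on chromosome 19, from 13261282 to 13265716 and from 39897487 to 39900045, both on the plus strand. ATF3, on chromosome 1 from 212738676 to 212794119, had by far the longest span, 55444 bp against 2559 to 4435 bp for the others, and also lay on the plus strand. The start of a gene is taken here as the end of its span where transcription begins. No exon or UTR annotation of hg19 was used.

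RNA polymerase II peaks lay over the start of EGR1, DUSP1, IER2 and ZFP36, so the promoters of these 4 genes are shown, from 250 bases before to 50 bases after the start, as RefSeq gives them on GRCh38.p14. Capitals mark matches to a CArG box, TGACGTCA (the cyclic AMP response element), TGANTCA (the AP-1 site), GGGCGG (the GC box), TATAAA or CACGTG (an E-box), searched on both strands. The EGR1 promoter was read from chr5:138465229-138465528 (plus strand), that of DUSP1 from chr5:172771146-172771445 (minus strand), that of IER2 from chr19:13150161-13150460 (plus strand) and that of ZFP36 from chr19:39406597-39406896 (plus strand).
EGR1: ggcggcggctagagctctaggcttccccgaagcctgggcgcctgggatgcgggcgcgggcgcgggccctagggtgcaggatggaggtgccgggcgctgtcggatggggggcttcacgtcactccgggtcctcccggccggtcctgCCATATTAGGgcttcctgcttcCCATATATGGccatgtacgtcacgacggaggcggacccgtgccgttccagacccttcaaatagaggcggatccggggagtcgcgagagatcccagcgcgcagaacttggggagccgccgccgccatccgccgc
DUSP1: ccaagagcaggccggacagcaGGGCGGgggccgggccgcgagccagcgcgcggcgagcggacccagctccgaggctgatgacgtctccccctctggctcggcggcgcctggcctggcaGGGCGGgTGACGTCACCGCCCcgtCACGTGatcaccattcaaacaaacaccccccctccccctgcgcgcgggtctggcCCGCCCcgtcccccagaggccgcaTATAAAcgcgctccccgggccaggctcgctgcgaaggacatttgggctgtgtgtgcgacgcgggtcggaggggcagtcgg
IER2: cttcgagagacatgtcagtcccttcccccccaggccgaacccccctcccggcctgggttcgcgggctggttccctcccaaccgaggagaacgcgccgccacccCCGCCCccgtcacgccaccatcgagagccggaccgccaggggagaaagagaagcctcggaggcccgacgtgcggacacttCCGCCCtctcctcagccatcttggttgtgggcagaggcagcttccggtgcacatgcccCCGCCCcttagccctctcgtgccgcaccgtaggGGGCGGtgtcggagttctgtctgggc
ZFP36: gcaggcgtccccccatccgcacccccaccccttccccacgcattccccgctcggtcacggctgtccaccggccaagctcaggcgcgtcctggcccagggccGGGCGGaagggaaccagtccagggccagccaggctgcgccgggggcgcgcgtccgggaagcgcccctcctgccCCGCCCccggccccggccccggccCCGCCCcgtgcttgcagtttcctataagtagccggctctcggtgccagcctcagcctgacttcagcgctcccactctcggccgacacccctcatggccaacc

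The EGR1 promoter held 2 CArG boxes, at 105 to 96 and 83 to 74 bases before the start. A CArG box was present in 1.29% of the 35116 promoters of the RefSeq table and in none of the other 4 genes' promoters in the table. DUSP1 held TGACGTCA at 125 to 118 bases before the start, a motif present in 1.85% of all promoters. DUSP1 also held CACGTG, present in 7.26% of all promoters, and TATAAA (11.5%). It had 4 matches to GGGCGG, and 45.0% of all promoters had at least 1. A match to GGGCGG adjoins TGACGTCA, so that the pair forms a single run of capitals. IER2 and ZFP36 held GGGCGG alone among the motifs searched, with 4 and 3 matches. TGANTCA, present in 7.71% of all promoters, had no match in the promoter windows of the 5 genes. ATF3 has 2 promoter windows in the table, with 1 match to GGGCGG in the window at the start of the gene and 1 to TATAAA in the other. They lie at chr1:212565157-212565456 and chr1:212614768-212615067. Any ATF3 promoter outside these 2 windows was not searched. These matches describe letters only. The spans on hg19 and the gene lengths in the GRCh38 table differed by 1 bp for EGR1, 2 bp for ZFP36, 11 bp for DUSP1, 66 bp for IER2 and 73 bp for ATF3, so peaks were not placed on these sequences base by base.

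**Figure D1:**
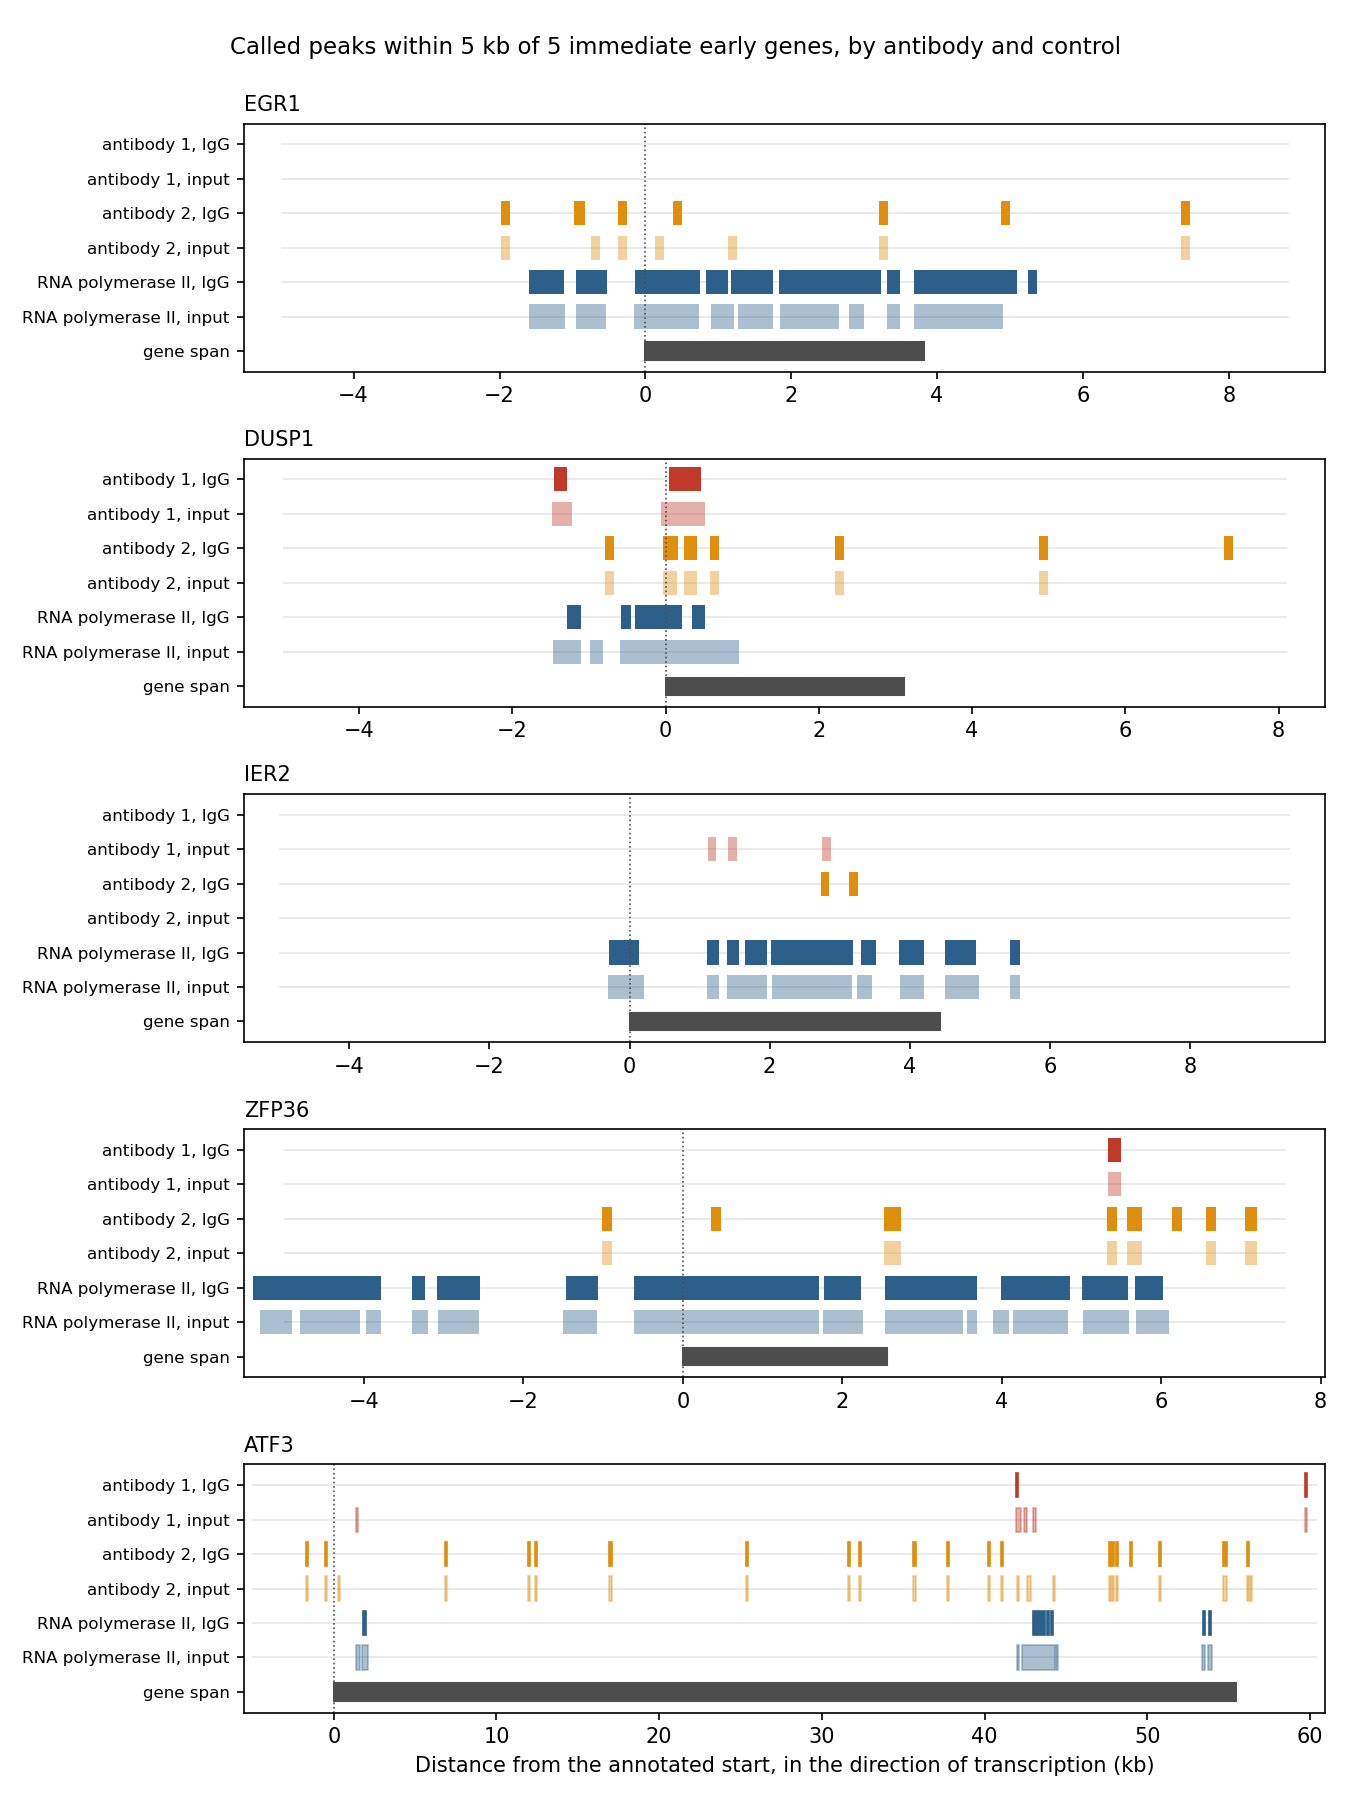
Peaks called within 5 kb of the 5 genes, by distance in kb from the annotated start in the direction of transcription. Each row is 1 list (antibody, then control), pale bars are peaks called against input, the grey bar is the gene span and the dotted line its start; ATF3 is drawn at a smaller scale with outlined peaks. Antibody 1 has 0 peaks at EGR1 with either control, and RNA polymerase II peaks run along the bodies of EGR1, IER2 and ZFP36.

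Antibody 1 peaks were fewer than RNA polymerase II peaks at each of these genes. Against IgG they were absent from EGR1 and IER2, where RNA polymerase II peaks were dense. Called against IgG, antibody 1 had 2 peaks at DUSP1, 1 at ZFP36 and 2 at ATF3, and 0 at EGR1 and IER2. RNA polymerase II had 4, 10 and 6 peaks at DUSP1, ZFP36 and ATF3, and 9 each at EGR1 and IER2. Antibody 2 had 7 peaks at EGR1, 7 at DUSP1, 2 at IER2, 8 at ZFP36 and 20 over the long ATF3 window. As a background, chromosomes 1 to 22 and X were cut into windows of each gene's size, whether or not a window held a gene. Shares of these windows, here and below, are therefore not shares among genes. Windows of the EGR1, DUSP1, IER2 and ZFP36 sizes held an antibody 1 peak in 4.83%, 4.61%, 5.04% and 4.44% of cases, and those of the ATF3 size in 18.4%. For antibody 2 these shares were 81.2%, 80.0%, 82.0%, 78.9% and 94.9%, and for RNA polymerase II 9.13%, 8.77%, 9.32%, 8.54% and 23.8%. Among windows that held an RNA polymerase II peak, those with an antibody 1 peak made up 34.8%, 34.4%, 35.6% and 34.0%, and 56.0% for the ATF3 size. All 5 genes had polymerase peaks and 3 had an antibody 1 peak, a count near what these shares give. Windows of these sizes held on average 0.0645 (EGR1), 0.0613 (DUSP1), 0.0675 (IER2), 0.0589 (ZFP36) and 0.301 (ATF3) antibody 1 peaks. All these means are below 1, so any window with a peak lies above its mean and any window without lies below it. They thus add nothing to the presence or absence of a peak at each gene.

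EGR1 combined dense RNA polymerase II peaks with the absence of any called antibody 1 peak. Its 9 polymerase peaks covered 87.3% of the gene span and 41.9% of the window, an extent that 0.115% of windows of this size reached. The peak over the start, at 137801033 to 137801932, was 900 bp wide and reached from 148 bp before to 751 bp after the start. The widest were 1392 bp (1837 to 3228 bp after the start) and 1414 bp. The 1414 bp peak crossed the end of the gene and reached 5097 bp from the start. Upstream lay peaks of 482 bp and 424 bp. The nearest antibody 1 peak was 25.5 kb upstream, at 137775489 to 137775662. With input as control it was 25.9 kb away, so EGR1 was without an antibody 1 peak in both lists.

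Antibody 2 peaks at EGR1 were narrow. Of the 7, 6 were 123 bp wide, the minimum width of the list, and the other was 145 bp at 137800204 to 137800348. The median window of this size held 2.00 antibody 2 peaks, and 2.41% held 7 or more. No antibody 2 peak lay over the start; the nearest ended 249 bp before it against IgG, and the nearest against input began 133 bp after it. Of the 7 peaks, 4 overlapped RNA polymerase II, whose peaks covered 41.9% of this window, against 3.20% of antibody 2 peaks over the list. Found again against input were 4 of the 7, against 93.2% over the list.

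At DUSP1, and at no other of the 5 genes, peaks of all 3 antibodies lay within 1 kb of the start. The antibody 1 peak at 172197737 to 172198159 was 423 bp wide and lay 44 to 466 bp after the start; 14.7% of the antibody 1 list was at least as wide. It shared 288 bp with 2 antibody 2 peaks and 294 bp with 2 RNA polymerase II peaks. The antibody 2 peaks were 170 bp (243 to 412 bp after the start) and 195 bp wide, and the wider one crossed the start, from 33 bp before to 161 bp after it. The RNA polymerase II peak over the start, 606 bp wide at 172197993 to 172198598, reached from 395 bp before to 210 bp after it. A further polymerase peak of 171 bp lay 340 to 510 bp after the start.

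The other antibody 1 peak at DUSP1 lay upstream, at 172199488 to 172199656, from 1453 to 1285 bp before the start. It was 169 bp wide, shared 10 bp with an RNA polymerase II peak of 185 bp, and was 488 bp from the nearest antibody 2 peak. Windows of the DUSP1 size with 2 or more antibody 1 peaks were 1.09% of all, and those with 7 or more antibody 2 peaks, as at DUSP1, 1.99%. Both antibody 1 peaks were called again against input, where they were wider, 573 bp and 262 bp, and the wider one then crossed the start, from 56 bp before to 516 bp after it. Unlike at EGR1, RNA polymerase II stayed close to the DUSP1 start: its peaks covered 12.3% of the gene span, and none lay beyond 510 bp into the gene. Still, 2.01% of windows of this size had as many bp under polymerase peaks. Against input the peak over the start was 1553 bp wide and reached 962 bp into the gene, and 31.0% of the span was covered.

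ZFP36 had the widest RNA polymerase II peak of the 5 genes, 2324 bp over its start at 39896869 to 39899192; 0.369% of the polymerase list was at least as wide. The 10 polymerase peaks covered 85.8% of the span and 64.2% of the window, an extent reached by 0.0256% of windows of this size (60 of 234584). They included peaks of 1605 bp at the upstream edge of the window and 1157 bp across the end of the gene. The nearest protein-coding genes in the RefSeq table are MED29 upstream and PLEKHG2 downstream, and how many of these peaks belong to them was not tested.

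The antibody 1 peak of the ZFP36 window did not touch the gene. It lay at 39902824 to 39902979, 156 bp wide, 2779 bp past the end of the span on the side of PLEKHG2. All 156 bp were inside an RNA polymerase II peak of 578 bp, and 105 bp were shared with a 123 bp antibody 2 peak. The same 3 peaks were present against input, where the antibody 1 peak was 160 bp wide. Antibody 2 had 8 peaks in the window, a number reached by 0.694% of windows of this size, and 5 of the 8 lay past the end of the gene. The widest, 212 bp at 39900013 to 39900224, crossed the end of the gene and shared 203 bp with a polymerase peak. Antibody 2 peaks covered 6.10% of the span itself against IgG and 1.29% against input.

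IER2 depended on the control for both PRDM11 antibodies. Against IgG it had 0 antibody 1 peaks, and the nearest was 30.6 kb upstream. Against input it had 3 antibody 1 peaks of the minimum 123 bp, from 1115 to 1237, 1413 to 1535 and 2754 to 2876 bp after the start, each inside an RNA polymerase II peak. For antibody 2 the lists went the other way, with 2 peaks of 123 bp against IgG, a number that 61.2% of windows of this size reached, and 0 against input, where the nearest was 12.5 kb downstream. The antibody 2 peak against IgG at 13264009 to 13264131 and the antibody 1 peak against input at 13264036 to 13264158 overlapped, but neither was found with the other control. RNA polymerase II was stable in comparison: its 9 peaks against IgG were all found again against input, including the 433 bp peak over the start (293 bp before to 139 bp after) and a 1169 bp peak inside the gene. They covered 57.5% of the span, against 59.7% with input, and 0.420% of windows of this size had as many bp under polymerase peaks. The nearest protein-coding genes in RefSeq are STX10 upstream and CACNA1A downstream. Whether any of these peaks, including that over the start, belong to them was not tested.

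ATF3 differed from the other 4 in having no RNA polymerase II peak over the annotated start. The nearest was 187 bp wide, 1822 to 2008 bp after the start. The widest, 735 bp at 212781649 to 212782383, lay 42973 to 43707 bp into the span and was followed by peaks of 154 bp and 143 bp, the last ending 44219 bp from the start. ATF3 is known to be transcribed from more than 1 promoter; which of these peaks lies at a promoter was not tested. A pair of polymerase peaks of 129 bp, the minimum of the list, lay further along. In all, 2.66% of the span was covered, and 6.98% of windows of this size held as many bp under polymerase peaks. Windows with 2 or more antibody 1 peaks, as at ATF3, were 6.77% of all.

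Both antibody 1 peaks at ATF3 were of the minimum width of 123 bp and, in the lists against IgG, overlapped neither antibody 2 nor RNA polymerase II. That at 212780633 to 212780755 lay 893 bp before the 735 bp polymerase peak. That at 212798336 to 212798458 lay 4217 bp past the end of the span, towards the neighbouring gene GARIN4, and 5737 bp from the nearest polymerase peak. Nearer the start, an antibody 1 peak of 123 bp was called against input, 1377 to 1499 bp after the start. It shared 119 bp with an RNA polymerase II peak of 205 bp, and neither was found against IgG. Against input the picture near the 735 bp peak was also fuller. Antibody 1 peaks of 269 bp, 142 bp and 213 bp lay between 41954 and 43166 bp from the start, each overlapping an RNA polymerase II peak, of which the widest was 1997 bp (42321 to 44317 bp from the start). The 269 bp peak, which covers the first of the peaks called against IgG, also shared 123 bp with an antibody 2 peak. Antibody 2 had 20 peaks against IgG, of which 16 were of the minimum width, against 78.4% over the list. RNA polymerase II overlapped 0 of the 20, against 3.20% of antibody 2 peaks over the list. Against input antibody 2 had 24 peaks, of which 3 overlapped RNA polymerase II, against 6.29% over the list. The widest, 228 bp, lay wholly inside the 1997 bp polymerase peak. The median window of this size held 10.0 antibody 2 peaks against IgG, and 6.22% held 20 or more.

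**Figure D2:**
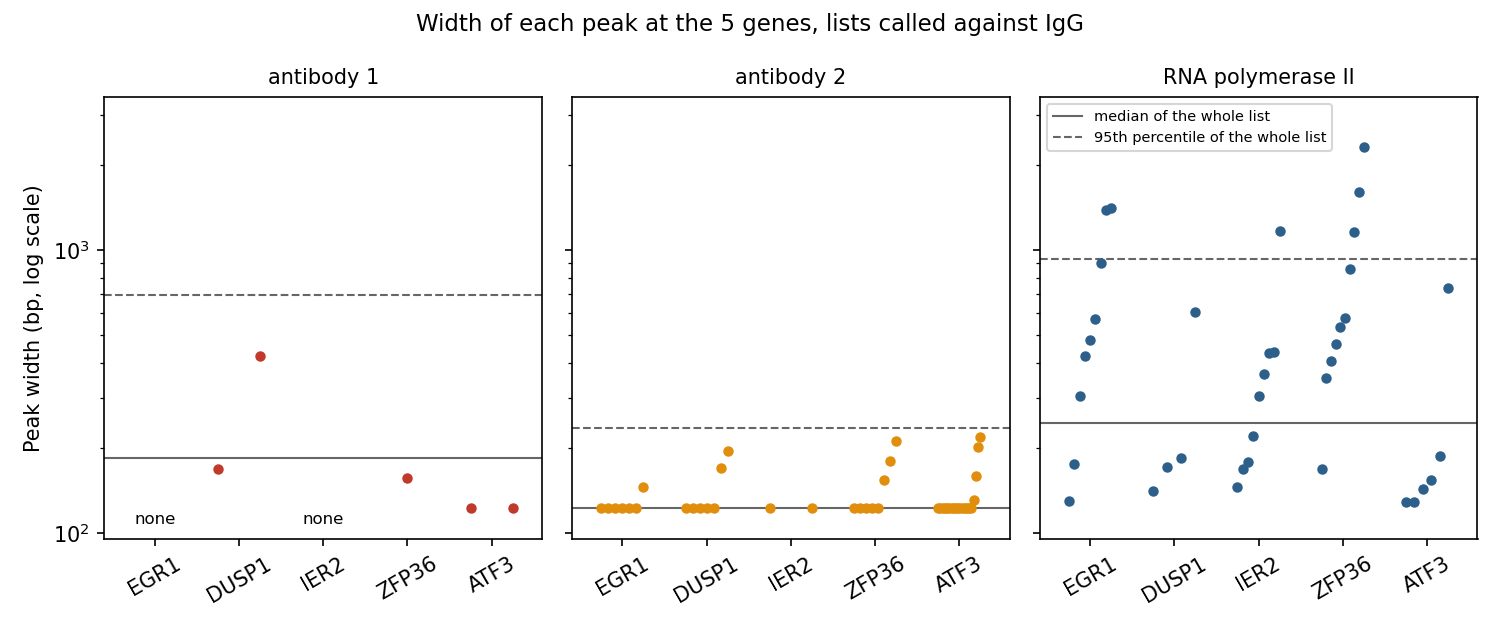
Width in bp (log scale) of each peak at the 5 genes in the lists called against IgG, 1 point per peak, spread sideways in order of width. The solid line is the median and the dashed line the 95th percentile of the whole list; 1 of 5 antibody 1 peaks (423 bp, DUSP1) and 23 of 38 RNA polymerase II peaks lie above the median of their list.

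Widths set the 3 libraries apart. RNA polymerase II peaks at the 5 genes had a median width of 386 bp, against 246 bp over the whole list, and 23 of 38 were wider than that list median. Antibody 1 peaks had a median of 156 bp, against 184 bp over the list. Of the antibody 2 peaks, 34 of 44 (77.3%) were of the minimum 123 bp, against 78.4% over the list, and none exceeded 218 bp. Both medians rest on peaks that share genes, and 5 antibody 1 peaks allow no statement on their spread.

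Wide RNA polymerase II peaks at these genes were without antibody 1 peaks when called against IgG. There were 6 of 1000 bp or more, at EGR1, IER2 and ZFP36, and 0 of them overlapped antibody 1, while 38.6% of the 2082 such peaks in the whole list did. By the limit of 3 counts, 0 of 6 allows a share of up to 50%, a range that includes the share of the list. That limit is coarse for so few peaks and treats peaks of the same gene as independent. It cannot decide whether the share differs from that of the list. Antibody 2 overlapped 5 of the 6, against 65.9% over the list. Against input, 3 of 5 such peaks, at DUSP1, IER2 and ATF3, overlapped antibody 1, and the share over the list was 65.5%. Antibody 2 overlapped 2 of the 5 against input, below the 77.4% of the list, so its count stood above the list share with one control and below it with the other. The polymerase peaks of 1000 bp or more at EGR1 and ZFP36 overlapped no antibody 1 peak with either control. At EGR1 with either control, and at IER2 against IgG, no overlap was possible, as no antibody 1 peak lay in the window. The wide peaks also differ in part between the controls. The 1392 bp peak of EGR1, for example, was called against input as peaks of 821 bp and 197 bp.

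Against IgG, the overlap shares of the 5 antibody 1 peaks had wide intervals that include the shares of the whole list. Of the 5, 2 overlapped antibody 2 (40.0%, exact 95% interval 5.27% to 85.3%), against 47.2% of the list. With RNA polymerase II the count was 3 (60.0%, interval 14.7% to 94.7%), against 55.2%. These lists share the IgG control; with the other list called against input, the counts were 3 and 4. With both lists called against input, 3 of 11 antibody 1 peaks overlapped antibody 2 (27.3%, interval 6.02% to 61.0%), against 34.8% of the list, and 10 of 11 overlapped RNA polymerase II (90.9%, interval 58.7% to 99.8%), against 44.9%. This last interval lies above the share of the list, but 8 of the 11 peaks lie at IER2 and ATF3. Peaks of 1 gene are not independent, so the interval cannot decide whether the share differs from that of the list. Both lists share the input control, and 5 of the 11 peaks were also called against IgG. Whether the antibody 1 share exceeds what the polymerase coverage of these windows gives was not tested. Of the antibody 2 peaks, 12 of 44 (27.3%, interval 15.0% to 42.8%) overlapped RNA polymerase II, against 3.20% of the list. They were 4 at EGR1, 2 at DUSP1, 2 at IER2 and 4 at ZFP36, where polymerase peaks covered 41.9%, 8.41%, 23.7% and 64.2% of the window, and 0 at ATF3, where they covered 2.26%. Against input, 13 of 43 (30.2%, interval 17.2% to 46.1%) overlapped, 3 of them at ATF3, against 6.29% of the list. Here too peaks of 1 gene are not independent, so neither antibody 2 interval can decide whether the share differs from that of the list. Whether the antibody 2 share exceeds what this coverage gives was not tested.

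**Figure D3:**
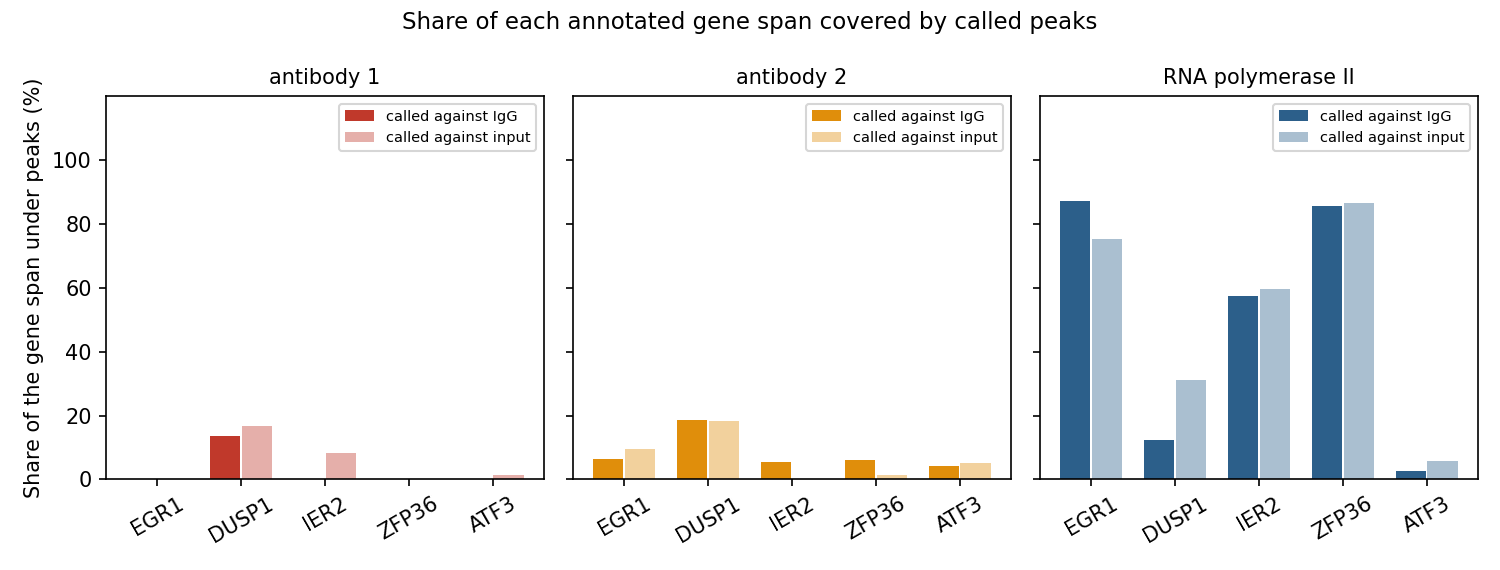
Share of each annotated gene span under called peaks (%), by antibody, in lists called against IgG (dark bars) and against input (pale bars). RNA polymerase II covers 87.3%, 57.5% and 85.8% of EGR1, IER2 and ZFP36 against IgG but 12.3% of DUSP1, where antibody 1 covers 13.6% and antibody 2 18.6%.

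The order of the genes by covered share thus differed between the antibodies. For RNA polymerase II it was EGR1, ZFP36, IER2, DUSP1 and ATF3 against IgG; against input ZFP36 (86.6%) came before EGR1 (75.2%). For antibody 1, DUSP1 led with 13.6% against IgG and 16.6% against input, ATF3 had 0.222% and 1.35%, and IER2 had 0 against IgG and 8.32% against input. For antibody 2, DUSP1 led with 18.6% and 18.3%, and the other 4 genes lay between 4.16% and 6.43% against IgG. Against input those 4 spread more widely, with 9.65% at EGR1, 5.03% at ATF3, 1.29% at ZFP36 and 0 at IER2. No errors can be attached to these shares.

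Nearly all polymerase peaks at these genes were called with either control. Of the peaks called against IgG, 5 of 5 for antibody 1, 35 of 44 (79.5%) for antibody 2 and 37 of 38 (97.4%) for RNA polymerase II were found again against input; over the whole lists these shares were 81.3%, 93.2% and 89.4%. Conversely, 5 of 11 antibody 1 peaks against input (45.5%) were found against IgG, compared with 19.5% over the list. The 6 additional ones were the 3 at IER2 and 3 at ATF3. More widely around the genes, the 1-Mb bins that hold the 5 starts had 7 to 31 antibody 1 peaks each against input and 5 to 13 against IgG.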

How the data were processed

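ChIP-seq libraries of U2932 cells (RNA polymerase II and 2 PRDM11 antibodies, with IgG and input controls, 1 library each) were deposited as peak lists. Tools named in the submitters' processing notes are MACS2 2.0.9, Bowtie 0.12.7 and SAMtools, and the build is hg19, with no role, order or settings; the control and a q threshold of 0.1 come from the names of the deposited lists. How duplicate reads were handled was not given in the sources used here. The 6 deposited lists hold 3 columns (chromosome, start, end), with no score or count, so a wide peak need not be a strong one. Starts were counted from 0 and are printed counted from 1.

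Peaks were taken within 5 kb of the 5 spans. Peaks overlapped when they shared at least 1 bp. Backgrounds were the same shares over the whole lists and over windows of each gene's size tiled over chromosomes 1 to 22 and X. Gene strand, promoter sequences and neighbour names came from RefSeq tables of GRCh38.p14, in which all 5 symbols matched; no hg19 annotation was used, so other immediate early genes were not analysed here. Intervals are exact (Clopper-Pearson) 95% binomial intervals and, like the limit of 3 counts for a count of 0, cover counting error only and treat peaks as independent. Genes, lists and settings were chosen with earlier results of these data known. All antibody 1 and RNA polymerase II peaks against IgG were described or counted; antibody 2 peaks of minimum width were mostly counted.

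Overlaps were computed with NumPy 2.4.6 and pandas 2.3.3 in Python 3.11.15, intervals with SciPy 1.17.1 and figures with matplotlib 3.10.9. Tested on simulated data, the overlap code returned the planted number of bp for 100% of 985 planted intervals and 0 bp for 987 others; its count of 7446 antibody 1 peaks in RNA polymerase II peaks equalled that of bedtools 2.31.1.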

Additional observations from a re-analysis of the deposited data

How the results depend on the processing

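Counts over the 5 genes moved by more than 1.5 times as follows. Against input there were 11 antibody 1 peaks in place of 5, of which 10 in place of 3 overlapped RNA polymerase II, and 1 gene (DUSP1) in place of 0 had an antibody 1 peak over its start. With a window of 2 kb there were 3 antibody 1 peaks, 1 of them in antibody 2. With the gene span only there were 2 antibody 1, 27 antibody 2 and 24 RNA polymerase II peaks, with 1 antibody 1 peak in antibody 2 and 1 in RNA polymerase II. With peaks of at least 200 bp there were 1, 3 and 24, with 0 antibody 1 peaks in antibody 2 and 1 in RNA polymerase II. Allowing 1 kb from the start gave 1 gene in place of 0. Smaller windows and wider minimum widths lower counts by construction; the cause of the differences between controls was not tested. A window of 10 kb left the 5 counts over the genes within the factor of 1.5, as did 50% coverage of the antibody 1 peak and the other list called against input for the 2 overlap counts. Of the 15 counts per gene and antibody, 12 stayed within the factor against input, 11 at 2 kb, 14 at 10 kb, 7 for the span only and 5 at 200 bp. Without scores in the lists, no stricter threshold was run. No paired analysis was possible because each antibody had 1 library, which also leaves no replicate to omit. Read depth is unknown.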
